A study of Mus musculus with 24 samples.

Results

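Macrophages that had been exposed to IL-4, washed and rested were compared between 2 genotypes, labelled PpargKO (KO below) and Wt (WT below). Of the 23420 genes in the deposited table, 11347 averaged at least 1 CPM (reads scaled to the assigned reads of a library) in either group, and these are the genes described. Both groups were bone marrow-derived macrophages of C57BL/6 male mice aged 3 months, differentiated with M-CSF for 6 days. Both then had IL-4 for 24 h (20 ng per µl as the labels print it), were washed, rested for 24 h in differentiation medium and had no second IL-4. Each group holds 2 samples, and the labels do not say whether these came from separate animals. The tests therefore measure the spread between samples of a group, which may be technical. That spread was estimated over the 16 libraries of all 8 groups of the table, not from the 4 libraries compared alone. Nor do the labels state the allele, the deleted part of the gene or the promoter of any Cre. The other 3 pairs of KO and WT groups of the same table, used here only to set the washed-out values beside, were unstimulated cells, cells given their first IL-4 for 3 h, and washed-out cells given IL-4 again for 3 h.

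PPARγ, encoded by Pparg, is a nuclear receptor that binds DNA with RXR at direct repeats of the half-site AGGTCA and is best known for driving lipid uptake and storage genes in fat cells and macrophages. IL-4 acts through its receptor and STAT6, turns on genes of alternatively activated macrophages and raises Pparg in them. The comparison asks how cells labelled as knockout and wild type for the receptor differ once the first IL-4 has been removed.

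The deposited columns are means of 2 libraries. Each mean could be split into whole reads of a deeper and a shallower library, at 8531450 and 7277878 assigned reads for KO and 10225346 and 8967454 for WT. Which replicate number each library has is unknown. The shallower WT library was counted like both KO libraries at genes with sequence copies, while the deeper WT library was counted like the WT libraries of the other conditions. Ubb, a ubiquitin gene with copies, shows it: 5.62 and 4.79 CPM in the KO libraries, against 368 CPM in the deeper and 2.95 CPM in the shallower WT library. Ppia, which encodes cyclophilin A, had 1.32 and 1.69 CPM in KO, against 223 and 1.70 CPM in WT, and Entpd4 had 0.120 and 0 CPM in KO, against 70.9 and 0 CPM in WT. These genes thus differed as much between the 2 WT libraries as between the genotypes. A gene is called sensitive to counting below where at least 10% of its 50-base words occur in other genes' transcripts or its WT libraries differed beyond 2-fold, and 2167 of the 11347 genes were. That definition was chosen after the values were seen, and the 9180 other genes carry the results. Of the 5292 genes of at least 5 CPM that share under 1% of their words, 0 differed beyond 2-fold between the WT libraries.

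**Figure D1:**
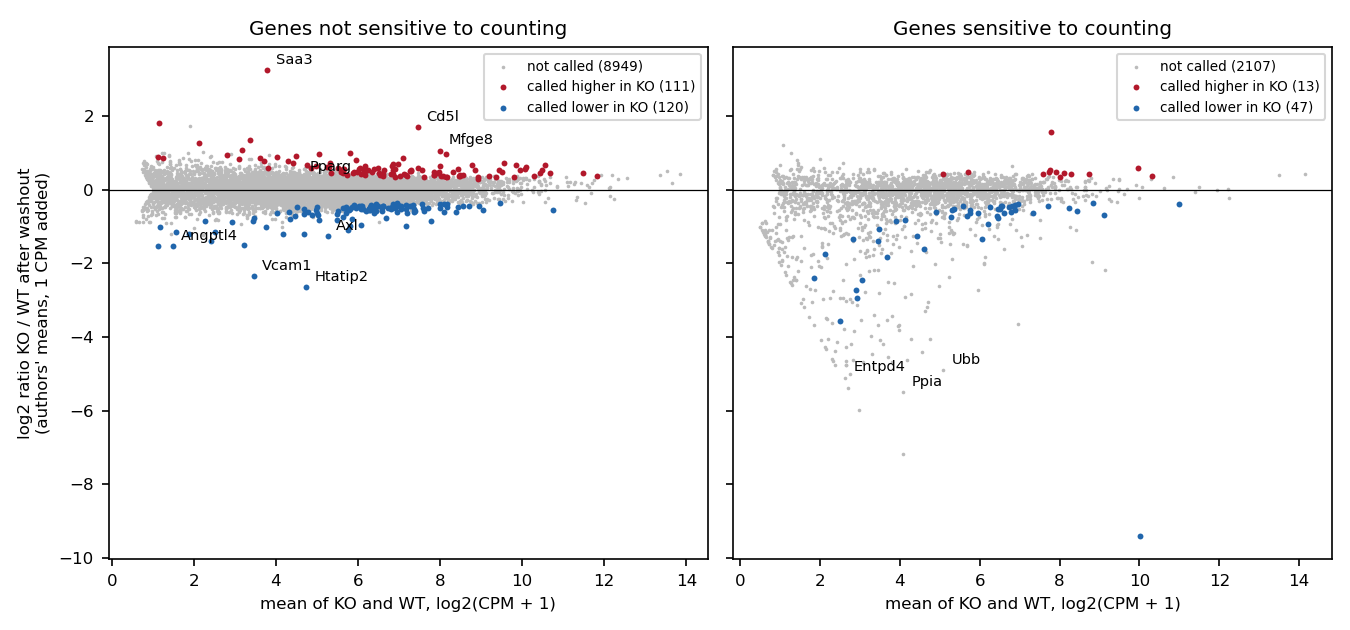
Log2 ratio of KO over WT after washout (y axis, authors' means with 1 CPM added) against the mean level of each gene (x axis, log2 of CPM + 1), for genes not sensitive (left) and sensitive (right) to counting; each point is a gene. The strongly negative ratios on the right, with Ubb, Ppia and Entpd4 among them, belong to genes with sequence copies, while on the left 111 genes were called higher and 120 lower.

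After washout, 124 genes were higher in KO (1.09% of 11347) and 167 lower (1.47%) at an adjusted p under 0.05 (limma across all genes, Benjamini-Hochberg), or 2.56% in either direction. Among genes not sensitive to counting these were 111 (1.21%) and 120 (1.31%). Most of these differences were modest: the median size was 0.53 on the log2 scale in both directions, and 7 of the 111 and 16 of the 120 passed 2-fold. Beyond 2-fold in the authors' means, with no test, were 9 genes higher (0.098%) and 20 lower (0.218%) of the 9180, but 11 higher (0.0969%) and 296 lower (2.61%) of all 11347, the excess lying in the genes sensitive to counting. The KO libraries stood above both WT libraries at 29.1% of the genes not sensitive and below both at 30.1% (27.7% and 29.4% of all genes compared), which is the background for every statement on overlap that follows. Called genes were picked on these same libraries, so a lack of overlap at a called gene adds nothing to its call. The shares called over all genes, given above, are the background for each count of list members below. Counts of calls rest on 2 libraries a group: they ran between 60 and 1503 when single libraries were left out, 60 without the shallower KO library and 1503 without the deeper WT library. With the counting kind of each library as a term in the fit, 61 of the 111 and 72 of the 120 were called again. Such calls hold with the counting term, which is not repeated at every gene below. Named genes that lost the call in that fit were Acsl4, Asb4, Ccl5, Cd14, Clec4b1, Cmbl, Ddit3, F7, Ifitm1 and Il18rap. The others were Jun, Mki67, Mmp13, Ndufb7, Oasl2, Plaur, Rhov, Scd1, Serpinb6b, Slc2a1, Slc3a2, Tbxas1 and Tyrobp. For the 64 named genes called, that fit gave the same ratios as leaving out the deeper WT library, but fewer calls: 23 lost the call with the term, and 2 when that library was left out. Of the same 64 genes, 34 lost the call without the shallower KO library (adjusted p 0.050 to 0.29), with their signs kept, and 9 without the deeper KO library, 2 without the deeper WT library and 3 without the shallower WT library.
The 34 were Acsl4, Angptl4, Asb4, BC064078, C1qc, Ccl5, Ccr2, Cd14, Cd163, Cdkn1a, Cmbl, Ctnnd2, Dusp4, Emr4, F7, Hk3, Ifitm1, Il18rap, Jun, Mki67, Mmp13, Ndrg1, Ndufb7, Oasl2, Plaur, Rhov, Siglec1, Slc2a1, Slc3a2, Tbxas1, Tfrc, Tlr4, Tmem171 and Tyrobp. Ccl5, Cmbl, Ddit3, F7, Il18rap, Mki67, Mmp13, Oasl2 and Scd1 made up the 9, Ifitm1 and Oasl2 the 2, and Acsl4, Ctnnd2 and Tlr4 the 3.

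The targeted gene itself did not separate the genotypes. Pparg had 25.8 and 27.3 CPM in KO, against 19.0 and 22.6 CPM in WT (log2 ratio 0.34 ± 0.16 SE, adjusted p = 0.21). The KO values were the higher ones. The deposited values are per gene (Pparg spans chr6:115360879-115490404 in mm10), and how reads were counted over exons is not given in the sources used here. Whether a deletion of some exons that leaves the rest transcribed would show is therefore unknown. The genotype is taken from the labels. In the unstimulated pair Pparg had 22.3 and 19.9 CPM in KO, against 24.2 and 21.9 CPM in WT, which overlap.

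Of 30 known PPARγ targets and partners compared, 0 were called higher and 2 lower (1.09% and 1.47% over all genes), and their median ratio was -0.07 (log2), against -0.02 over all genes compared. Angptl4, a secreted inhibitor of lipoprotein lipase and a classical PPAR target, had 0.598 and 0.704 CPM in KO, against 3.61 and 3.97 CPM in WT. It fell by 1.54 on the log2 scale (± 0.31 SE, adjusted p = 0.020), and the call was lost without the shallower KO library (adjusted p = 0.078). Scd1, the desaturase that makes oleate, had 0 and 0.564 CPM in KO, against 3.92 and 1.47 CPM in WT (log2 ratio -1.53, adjusted p = 0.038). The groups did not overlap, but these are a few reads a library and the call was lost with the counting term (adjusted p = 0.16).

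Fabp4, the fatty acid-binding protein most often used as a PPARγ readout, had 14.5 and 11.7 CPM in KO, against 17.2 and 22.9 CPM in WT. Its log2 ratio of -0.58 ± 0.24 SE did not pass the test (adjusted p = 0.15). The scavenger receptor Cd36, which takes up oxidised lipoprotein, had 917 and 795 CPM in KO, against 827 and 927 CPM in WT, which overlap. Lpl, lipoprotein lipase, had 2365 and 2224 CPM in KO, against 2075 and 2222 CPM in WT. Plin2, which coats lipid droplets, had 410 and 440.2 CPM in KO, against 481 and 423 CPM in WT. None of these 3 differed between the genotypes by more than between the libraries of a genotype.

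IL-4 receptor and JAK-STAT components gave 0 calls among 21 members (2.56% over all genes). Stat6 had 333 and 326 CPM in KO, against 331 and 323 CPM in WT, and Il4ra, the receptor chain that binds IL-4, had 259 and 284 CPM in KO, against 257 and 253 CPM in WT. The libraries of Stat6 overlap, and those of Il4ra are apart by less than they differ within KO.

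Genes that IL-4 induces in macrophages were called in both directions, 3 higher and 3 lower of 39, their median ratio being 0.06 (log2). The integrin Itgax (CD11c) and the chemokines Ccl2 and Ccl7 were higher. F13a1, a clotting factor subunit that macrophages make, was lower, as were the chitinase-like Chi3l3 and the lectin Clec10a, which are both sensitive to counting. Chi3l3 had 464 and 398 CPM in KO, against 723 and 679 CPM in WT, so both WT libraries were above both KO libraries in spite of their different counting. Retnla, the most used mark of alternative activation, had 2579.7 and 2188 CPM in KO, against 2743 and 2778 CPM in WT (log2 ratio -0.21, adjusted p = 0.73). The arginase gene Arg1 was near the limit of detection, at 0.837 and 2.96 CPM in KO, against 1.00 and 2.27 CPM in WT.

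F13a1 had 178 and 148 CPM in KO, against 271 and 317 CPM in WT, and fell by 0.84 on the log2 scale (± 0.11 SE, adjusted p = 0.00066). In unstimulated cells it had 218 and 209 CPM in KO, against 231 and 235 CPM in WT. The 2 genotypes were thus close before IL-4 and well apart after washout. The difference between the 2 conditions was -0.72 (± 0.13 SE, unadjusted p = 6.1e-05), and its adjusted p over 11507 genes was 0.22.

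Saa3, an acute-phase protein of the serum amyloid A family, had 44.1 and 38.9 CPM in KO, against 4.52 and 2.50 CPM in WT. It was 9.43-fold higher on the authors' means with 1 CPM added (log2 ratio 3.24 ± 0.42 SE, adjusted p = 0.00066). Both KO libraries were far above both WT libraries, and the call was kept in each of the 14 alternative analyses. Cd5l, a scavenger protein of tissue macrophages that inhibits apoptosis and is a target of the nuclear receptor LXR, had 314 and 320 CPM in KO, against 96.2 and 96.9 CPM in WT. Its libraries agreed closely within each genotype, and it had the smallest adjusted p among the named higher genes (log2 ratio 1.70 ± 0.14 SE, adjusted p = 5.1e-06).

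Mfge8, a bridging protein that lets macrophages take up dying cells, had 344 and 389.7 CPM in KO, against 182 and 170 CPM in WT (log2 ratio 1.06, adjusted p = 0.00094). Itgax, which pairs with Itgb2 as a complement receptor and is also a dendritic cell marker, had 384 and 411 CPM in KO, against 210 and 195 CPM in WT (log2 ratio 0.97, adjusted p = 0.0019). The calls of Saa3, Cd5l, Mfge8 and Itgax, like those of Htatip2 and Vcam1 below, were kept in all 14 alternatives. Id3, an inhibitor of helix-loop-helix transcription factors, had 12.7 and 18.03 CPM in KO, against 6.22 and 4.77 CPM in WT (log2 ratio 1.33, adjusted p = 0.0023). Again no KO library reached down to a WT library.

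The remaining genes of the 15 largest increases had ratios of 0.87 to 1.80. 8430408G22Rik was at 3.11 and 3.24 CPM in KO, against 0.402 and 0 CPM in WT, a handful of reads in WT. BC064078, Pcp4l1, Rhov, which encodes a small GTPase, Tmem171 and Ctnnd2, which encodes a δ-catenin, were each at least 0.88 higher on the log2 scale. Ctnnd2 was the weakest of these, at 1.56 and 2.39 CPM in KO, against 1.00 and 0.227 CPM in WT, and lost its call without the shallower library of either genotype.

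**Figure D2:**
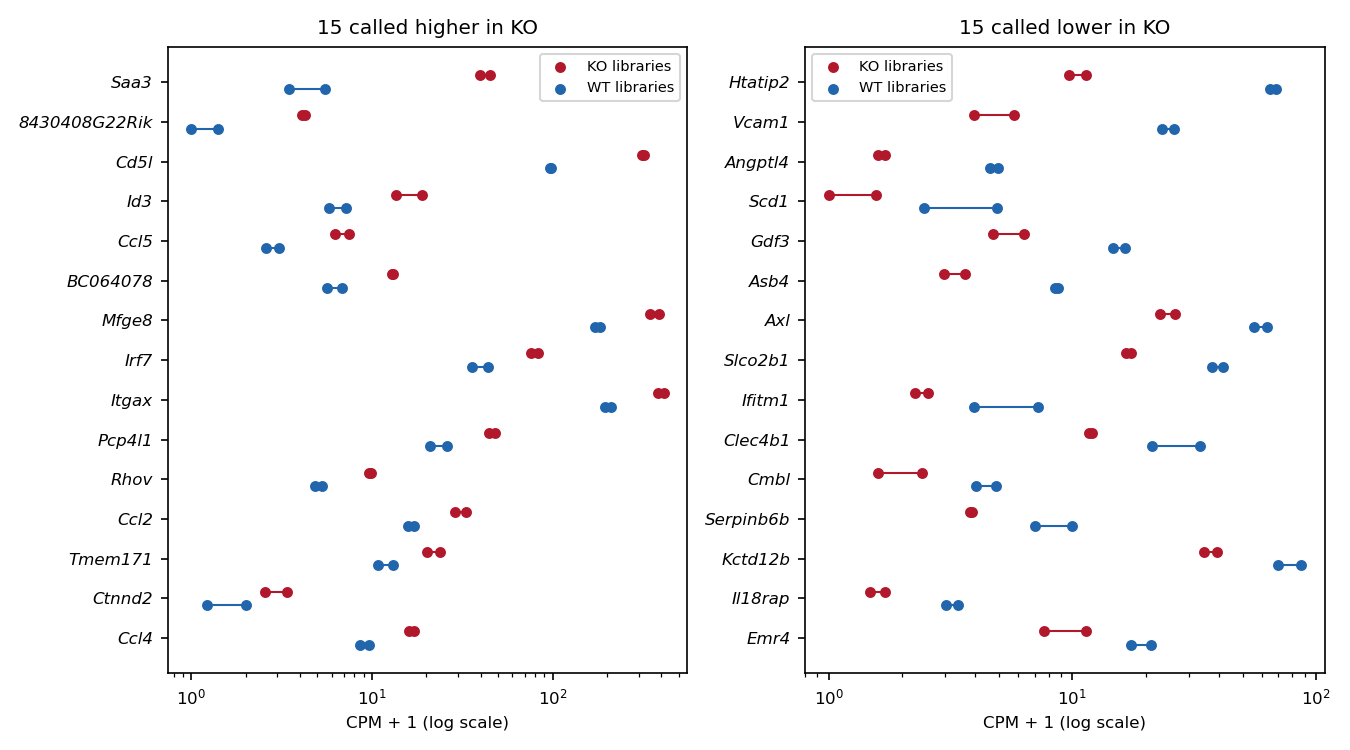
CPM + 1 on a log scale (x axis) of each library for the 15 genes called higher and the 15 called lower with the largest ratios, leaving out genes sensitive to counting; each point is a library and a line joins the libraries of a genotype, KO above WT. In none of the 30 genes do the KO and WT libraries overlap, which adds nothing to the calls because these were made on the same libraries.

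Of 26 chemokines and chemokine receptors, 6 were higher and 1 lower (1.09% and 1.47% over all genes). Their median ratio was 0.23 (log2). All 6 higher ones are ligands that attract monocytes or T cells. Ccl5 had 6.46 and 5.21 CPM in KO, against 1.61 and 2.04 CPM in WT (log2 ratio 1.28, adjusted p = 0.049). Ccl2, the main monocyte attractant, had 28.0 and 32.3 CPM in KO, against 16.1 and 14.9 CPM in WT (log2 ratio 0.92, adjusted p = 0.0018). Its related neighbours on chromosome 11 were also higher, Ccl7 by 0.82 and Ccl4 by 0.87.

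Ccl3 had 34.7 and 31.6 CPM in KO, against 17.4 and 23.6 CPM in WT, and Ccl6 had 1307 and 1325 CPM in KO, against 861 and 921 CPM in WT. The lower member was Ccr2, the receptor for Ccl2, at 72.9 and 66.6 CPM in KO, against 98.8 and 109 CPM in WT (log2 ratio -0.57, adjusted p = 0.036). The ligand and its receptor thus moved in opposite directions in the same libraries. Ccl5 and Ccl3 lost their calls with the counting term (adjusted p = 0.098 and 0.19), and Ccl5 and Ccr2 without the shallower KO library (adjusted p = 0.18 and 0.24).

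Of 22 inflammatory cytokines and NF-kB regulators, Saa3 and Cd14 were higher and Tlr4 lower. Cd14, which hands lipopolysaccharide to Tlr4, had 407 and 405 CPM in KO, against 313 and 313 CPM in WT. Tlr4 itself had 111 and 105 CPM in KO, against 130 and 147 CPM in WT. Tnf, at 14.4 and 18.5 CPM in KO, against 8.43 and 9.87 CPM in WT, did not pass (log2 ratio 0.78, adjusted p = 0.068) although its libraries did not overlap.

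C1qa and C1qc, 2 of the 3 chains of C1q, which starts the classical complement pathway, were higher in KO. C1qa had 1822 and 1981 CPM in KO, against 1245 and 1156 CPM in WT (log2 ratio 0.66 ± 0.09 SE, adjusted p = 0.0018). C1qc had 3271 and 3413 CPM in KO, against 2536 and 2325 CPM in WT (log2 ratio 0.46, adjusted p = 0.028), and lost the call without the shallower KO library. C1qb averaged 4454 CPM in KO and 3384 CPM in WT and did not pass (log2 ratio 0.40, adjusted p = 0.052); its KO mean could not be split and entered the fit as 1 observation of double weight. With Itgax, 3 of 13 complement members were called higher and 0 lower (1.09% and 1.47% over all genes). Their median ratio was 0.28 (log2).

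Interferon-stimulated genes did not move as a group: 3 of 39 were higher, 0 lower, and their median was -0.08 on the log2 scale. Irf7, the transcription factor that amplifies type I interferon, had 75.1 and 81.8 CPM in KO, against 34.8 and 42.7 CPM in WT (log2 ratio 1.00, adjusted p = 0.00028). Bst2, which tethers budding viruses to the cell surface, had 188 and 182 CPM in KO, against 130 and 129 CPM in WT (log2 ratio 0.51, adjusted p = 0.0077). Oasl2, an antiviral protein of the oligoadenylate synthetase family, had 84.9 and 84.1 CPM in KO, against 51.5 and 68.1 CPM in WT, and lost its call with the counting term (adjusted p = 0.22).

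Of 21 immediate early genes 3 were higher and 0 lower (1.09% and 1.47% over all genes), and their median ratio was 0.35 (log2). Jun, a subunit of AP-1, had 176 and 193 CPM in KO, against 123 and 135 CPM in WT. Ier3 had 54.0 and 55.1 CPM in KO, against 36.1 and 36.3 CPM in WT, and Dusp4, a phosphatase that switches off MAP kinases, had 14.0 and 18.3 CPM in KO, against 8.23 and 9.64 CPM in WT. Fos, with 51.3 and 54.1 CPM in KO, against 40.4 and 34.9 CPM in WT, did not pass (log2 ratio 0.47, adjusted p = 0.14).

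Among genes of matrix turnover, 6 were higher and 1 lower of 38 (median 0.13). Plau, the urokinase that activates plasminogen, had 176 and 192 CPM in KO, against 97.9 and 103 CPM in WT (log2 ratio 0.86 ± 0.08 SE, adjusted p = 2.3e-05). Its receptor Plaur had 67.4 and 78.7 CPM in KO, against 52.8 and 51.8 CPM in WT (log2 ratio 0.47, adjusted p = 0.049). The protease Adam8 had 897 and 1062 CPM in KO, against 620.3 and 557 CPM in WT (log2 ratio 0.73, adjusted p = 0.0011).

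Mmp12, the macrophage elastase, had 1398 and 1318 CPM in KO, against 825 and 954 CPM in WT (log2 ratio 0.61, adjusted p = 0.0058). Mmp13, a collagenase, had 51.4 and 42.8 CPM in KO, against 26.4 and 34.6 CPM in WT, and Timp2, an inhibitor of these enzymes, was 0.38 higher on the log2 scale. Of the 6, Plau, Adam8 and Mmp12 held with the counting term, and Plaur, Mmp13 and Timp2 did not. In the clotting list, F7, coagulation factor VII, was lower with F13a1, at 23.6 and 24.5 CPM in KO, against 42.4 and 44.4 CPM in WT (log2 ratio -0.83, adjusted p = 0.044); it lost the call without the shallower KO library (adjusted p = 0.20).

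**Figure D3:**
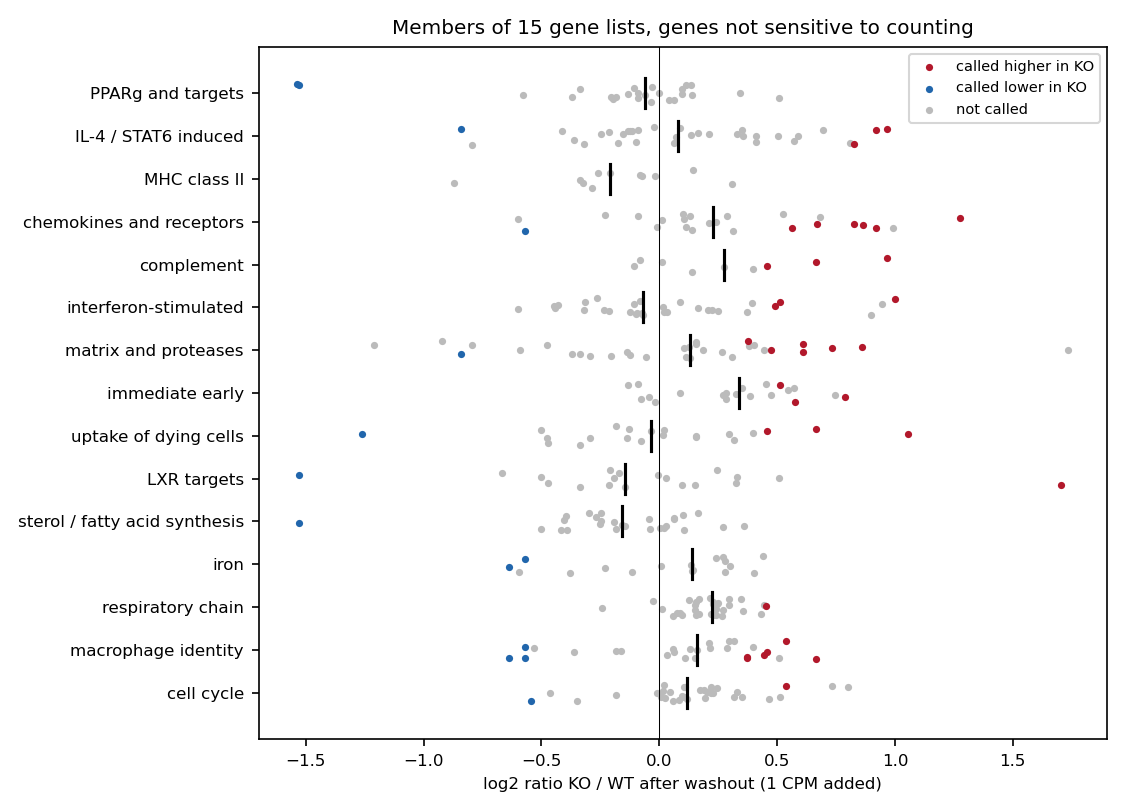
Log2 ratio of KO over WT after washout (x axis) for the members of 15 of the gene lists (rows), leaving out genes sensitive to counting; each point is a gene, coloured where called, and black bars mark medians. Chemokine and complement members called are mainly to the right, PPARγ targets cluster around 0 apart from Angptl4 and Scd1 near -1.5, and respiratory chain members lie narrowly to the right with 1 call.

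The strongest decrease was that of Htatip2, which encodes the oxidoreductase TIP30. It had 10.4 and 8.73 CPM in KO, against 67.5 and 63.9 CPM in WT, and fell by 2.66 on the log2 scale (± 0.16 SE, adjusted p = 5.3e-08). Vcam1, an endothelial and macrophage adhesion molecule that binds integrin α4β1, had 4.79 and 2.96 CPM in KO, against 22.3 and 25.2 CPM in WT (log2 ratio -2.34, adjusted p = 0.00042). For both genes every WT library was several times above every KO library.

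Gdf3, a TGF-β family ligand, had 3.71 and 5.35 CPM in KO, against 13.7 and 15.4 CPM in WT (log2 ratio -1.49, adjusted p = 0.0078). Axl, a receptor tyrosine kinase that recognises dying cells through Gas6, had 21.9 and 25.5 CPM in KO, against 54.7 and 61.8 CPM in WT (log2 ratio -1.26, adjusted p = 0.0029). In the list of receptors and bridging proteins for dying cells, Mfge8, C1qa and C1qc were thus higher and Axl lower, 3 and 1 of 23, with a median of -0.04. Mertk, a relative of Axl, had 115 and 101 CPM in KO, against 108 and 138 CPM in WT, and did not pass (adjusted p = 0.50).

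Slco2b1, an organic anion transporter, had 15.7 and 16.3 CPM in KO, against 36.4 and 40.5 CPM in WT (log2 ratio -1.21, adjusted p = 0.0011). Kctd12b had 38.2 and 33.7 CPM in KO, against 68.9 and 85.8 CPM in WT (log2 ratio -1.09, adjusted p = 0.0011). Of the other 9 genes among the 15 largest decreases, Angptl4 and Scd1 are given above, Emr4, an adhesion receptor of the F4/80 family, fell by 1.02, and Asb4, Ifitm1, Clec4b1, Cmbl, Serpinb6b and Il18rap fell by 1.02 to 1.38. Of these, Emr4 and Angptl4 held with the counting term and the other 7 did not. Ifitm1, for example, had 1.56 and 1.27 CPM in KO, against 6.22 CPM in the deeper but 2.95 CPM in the shallower WT library.

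Macrophage identity genes were split, 6 higher and 4 lower of 33, with a median ratio of 0.15 (log2). Of the 33, 6 are sensitive to counting and 24 could be split into libraries in both groups. The lowest ratio in the list was -9.40, and its cause was not tested. The macrophage markers Csf1r and Emr1 were at high levels in both genotypes. Csf1r, the M-CSF receptor (sensitive to counting), averaged 4757 CPM in KO and 4724 CPM in WT, and Emr1 (F4/80) averaged 3246 CPM in KO and 3121 CPM in WT; neither WT mean could be split into libraries, nor could the KO mean of Csf1r. Higher were C1qa, C1qc, Cd14, Cd68, Trem2 and its adaptor Tyrobp. Trem2, a lipid-sensing receptor, had 1157 and 1232 CPM in KO, against 862 and 784 CPM in WT (log2 ratio 0.54, adjusted p = 0.0057), and Cd68, a lysosomal glycoprotein, had 1883 and 1956 CPM in KO, against 1465 and 1354 CPM in WT (log2 ratio 0.45, adjusted p = 0.0098).

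Lower were Cd163, Siglec1, Ccr2 and Lyz2, and Lyz2 is sensitive to counting. Cd163, which clears haemoglobin, had 40.7 and 41.6 CPM in KO, against 59.5 and 69.5 CPM in WT (log2 ratio -0.64, adjusted p = 0.036). Siglec1, a sialic acid receptor of resident macrophages, had 154 and 164 CPM in KO, against 227 and 245 CPM in WT (log2 ratio -0.57, adjusted p = 0.029). Both lost their calls without the shallower KO library (adjusted p = 0.17 and 0.090). Tfrc, the transferrin receptor through which cells take up iron, had 148 and 123 CPM in KO, against 186 and 217 CPM in WT (log2 ratio -0.57, adjusted p = 0.020); with Cd163 it made 2 lower and 0 higher of 18 iron genes.

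MHC class II genes had a median log2 ratio of -0.26 and no call, 0 of 13, where 2.56% of all genes were called. Ciita, their master regulator, had 71.8 and 62.1 CPM in KO, against 127 and 119 CPM in WT (log2 ratio -0.87, adjusted p = 0.057). The class II chain H2-Aa had 969 and 869 CPM in KO, against 1148 and 1173 CPM in WT (log2 ratio -0.34, adjusted p = 0.14). In 7 of the 11 members that could be split, both KO libraries were below both WT libraries, against 29.4% of all genes compared.

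Of 39 respiratory chain subunits 1 was higher (Ndufb7, log2 ratio 0.45) and 0 lower, close to the 2.56% called over all genes. Their median was 0.19. In 26 of them both KO libraries were above both WT libraries, against 27.7% of all genes compared. Slc2a1, the glucose transporter GLUT1, had 40.7 and 50.6 CPM in KO, against 28.5 and 30.6 CPM in WT, and the hexokinase Hk3 had 397 and 446 CPM in KO, against 301 and 273 CPM in WT, which made 2 of 22 glycolysis genes higher. Of 35 genes of sterol and fatty acid synthesis 0 were higher and 3 lower, namely Scd1 and, both sensitive to counting, Idi1 and Hmgcs1; the median was -0.25, or -0.16 without the genes sensitive to counting. Among LXR targets Cd5l was higher and Scd1 lower, 1 and 1 of 21, while Abca1, the cholesterol exporter, had 318 and 255 CPM in KO, against 358 and 436 CPM in WT and did not pass (adjusted p = 0.18). In the cell cycle list, Cdkn1a, the inhibitor p21, was higher by 0.54 and the proliferation marker Mki67 lower by the same amount, 1 and 1 of 42. Mki67 had 439 and 429.5 CPM in KO, against 631 and 637 CPM in WT. The list as a whole did not follow Mki67, its median being 0.14. In 19 of the 42 both KO libraries were above both WT libraries, and in 6 below both (27.7% and 29.4% over all genes).

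Of 24 lectins and Fc receptors 1 was higher and 2 lower: Clec12a, an inhibitory receptor for dead cells, had 564 and 533 CPM in KO, against 327 and 362 CPM in WT (log2 ratio 0.67, adjusted p = 0.00066), and Clec4b1 and Clec10a were lower. Of 13 genes of cell fusion and osteoclasts 3 were higher, Trem2, Tyrobp and the tetraspanin Cd81, and 0 lower. Of 18 hypoxia genes Slc2a1 and Ndrg1 were higher and Bnip3l, sensitive to counting, lower. Single calls were Ddit3, a stress transcription factor, higher among 20 stress genes, Tbxas1, thromboxane synthase, higher among 17 eicosanoid genes, Slc3a2, a heavy chain of amino acid transporters, higher among 15 arginine genes, and Acsl4, an acyl-CoA synthetase, lower among 25 genes of fatty acid oxidation. Of 28 antioxidant and 15 housekeeping genes 0 were called, where 2.56% of all genes were.

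Fibroblast markers summed to 8.14 and 26.1 CPM in KO, against 17.6 and 21.7 CPM in WT, with 0 of 6 called. Neutrophil markers summed to 497 and 441 CPM in KO, against 427 and 447 CPM in WT, with 0 of 11 called. Of 19 markers of mast cells, basophils and eosinophils 9 were at 0 in all 4 libraries, as were 9 of 18 lymphoid markers. Of 4 markers of erythroid cells and megakaryocytes Tfrc was lower, and the 1 adipocyte marker compared, Fabp4, was not called. Dendritic cell markers summed to 875 and 894 CPM in KO, against 598 and 595 CPM in WT, and Itgax and Bst2 were the 2 of 8 called higher. Most of that gap lay in these 2 genes, Itgax averaging 397 CPM in KO and 203 CPM in WT, and Bst2 185 and 130 CPM. The median ratio of the 8 was 0.09 (log2). Both KO libraries were above both WT libraries in 3 of them and below both in 2 (27.7% and 29.4% over all genes). Fewer cells of a type and less RNA per cell cannot be told apart in such bulk samples, and the part of these cells in the results was not tested.

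Most genes called after washout differed in the same direction in cells that had never had IL-4. There, on libraries that share no sample with the washed-out ones, 811 genes were higher (7.19%) and 1144 lower (10.1%) in KO, or 17.3% of 11280. Of the genes not sensitive to counting called after washout, 104 of 110 higher and 114 of 119 lower ones had the same sign in unstimulated cells, against 72.5% of all genes not sensitive, and 75 and 73 of them were called there too. Htatip2 had 9.95 and 8.16 CPM in unstimulated KO, against 70.4 and 67.1 CPM in unstimulated WT. Saa3 had 20.4 and 16.6 CPM in unstimulated KO, against 2.19 and 2.32 CPM in unstimulated WT. In the deeper WT library and in every unstimulated WT library genes with copies were counted differently from KO, which is why the shares are given for genes not sensitive to counting.

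Whether washout changed the genotype difference was tested directly over 11507 genes, and 0 were called by limma on log2 values and 0 by limma-voom on the recovered reads, with 818 (log2 values) at an unadjusted p under 0.05. The smallest adjusted p was 0.22, shared by Plxnd1, Cd5l and F13a1. Cd5l had 199 and 230 CPM in unstimulated KO, against 136 and 118 CPM in unstimulated WT, so its log2 ratio was 1.70 after washout and 0.75 before IL-4. Plxnd1, a semaphorin receptor, had 1095 and 1222 CPM in KO after washout, against 742 and 727 CPM in WT, while it had 1049 and 1076 CPM in unstimulated KO, against 375 and 456 CPM in unstimulated WT; its ratio was smaller after washout, 0.66 against 1.35. For Slco2b1 the unstimulated values were 45.5 and 52.2 CPM in KO, against 57.2 and 60.6 CPM in WT, and the change in ratio of -0.95 ± 0.21 SE had an adjusted p of 0.35. With the deeper WT library left out, the washed-out libraries were all counted alike, while the unstimulated WT libraries were counted differently from KO. That setting mixes counting with the change between conditions, so it cannot show how firm the count of 0 is. The test as reported mixes them too, at genes sensitive to counting. There 1 of the 2 washed-out WT libraries was counted like KO, and neither unstimulated WT library was. Without genes that share sequence 4 genes were called, and 1 with the counting term.

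**Figure D4:**
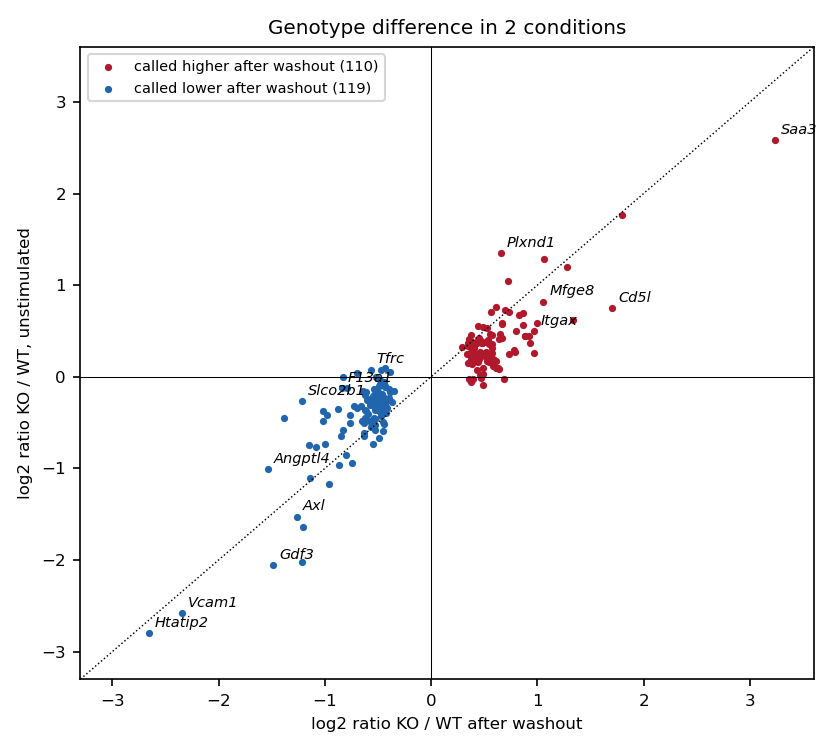
Log2 ratio of KO over WT after washout (x axis) and in unstimulated cells (y axis) for genes called after washout and not sensitive to counting; each point is a gene and the dotted line marks equal ratios. Htatip2, Vcam1 and Saa3 lie far out in both conditions, Cd5l lies below the line (1.70 after washout, 0.75 unstimulated), and F13a1 and Slco2b1 have unstimulated ratios near 0.

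With the first IL-4 for 3 h, 166 genes were higher (1.48%) and 850 lower (7.56%) in KO, or 9.04% of 11245. Both WT libraries there were counted differently from both KO libraries, so the 850 include genes with copies such as Ubb (log2 ratio -6.22). Among washout calls not sensitive to counting, 94 of 110 higher and 87 of 118 lower ones had the same sign there. The share over all genes not sensitive was 54.4%. Saa3 had 13.6 and 15.3 CPM in KO after that IL-4, against 12.7 and 4.14 CPM in WT, nearly overlapping. With IL-4 again after washout, 0 genes were higher and 2 lower by limma (0.0168% of 11894). In the washout fit the WT group of that pair had a weight of 0.096, against 0.784 to 2.22 for the other groups. The small count therefore does not show that the genotypes were alike. Of the washout calls not sensitive to counting, 75 of 111 higher and 60 of 120 lower ones had the same sign there, against 41.5% of all genes not sensitive. One library of that pair stands apart: Col1a1, a fibroblast collagen, had 0.233 and 0.266 CPM in KO, against 492 and 16.9 CPM in WT; Htatip2 still had a log2 ratio of -3.41 there (adjusted p = 0.0015), while Cd5l, at 232 and 230.1 CPM in KO, against 261 and 105 CPM in WT, overlapped.

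**Figure D5:**
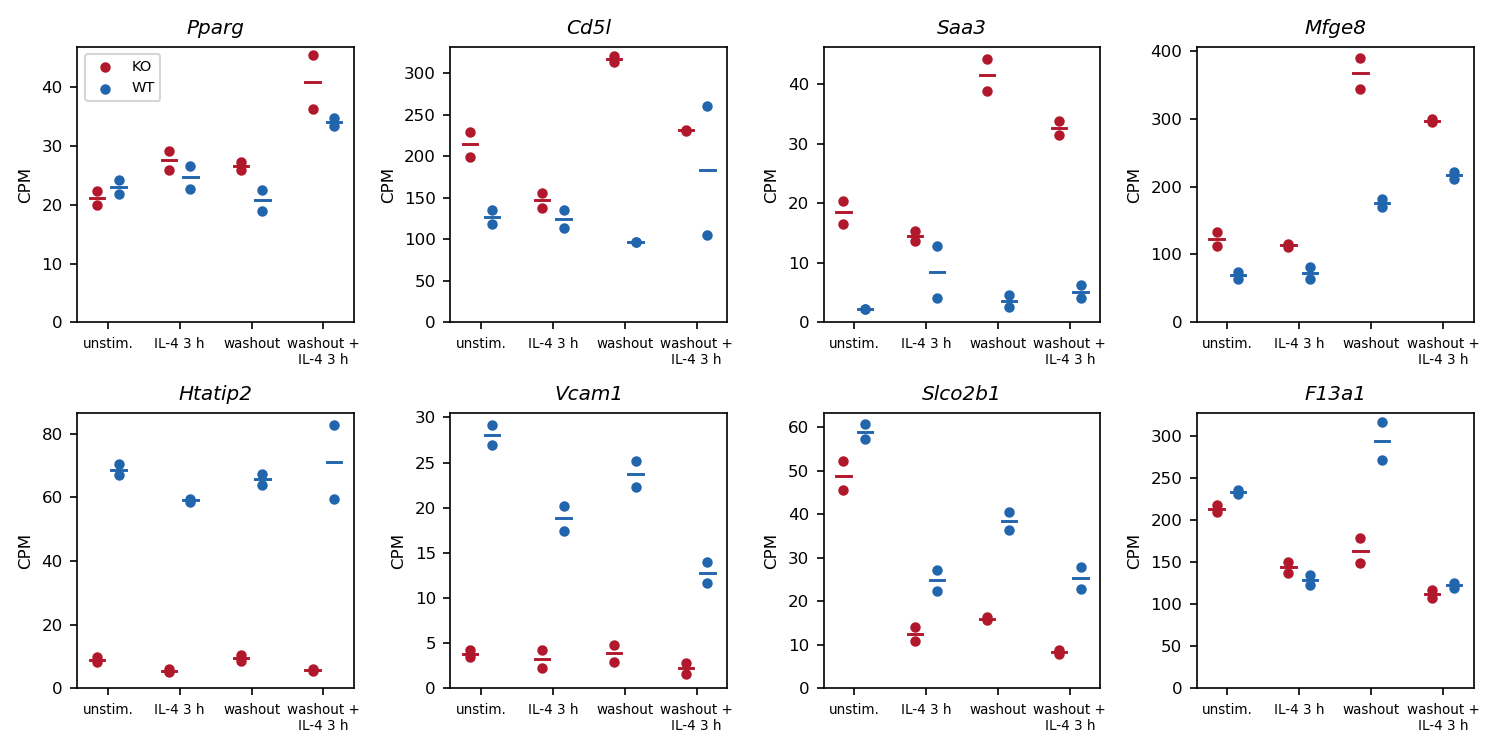
CPM (y axis, from 0) of 8 genes in each library of the 4 conditions (x axis: unstimulated, first IL-4 for 3 h, washout after 24 h of IL-4, and washout followed by IL-4 for 3 h), KO left of WT; points are libraries and bars are their means. Pparg differs little between the genotypes, Htatip2 and Vcam1 are low in KO in every condition, and the KO and WT values of Cd5l and F13a1 are farthest apart after washout.

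Itgax and Mfge8 were higher after washout than in unstimulated cells in both genotypes. Itgax had 64.8 and 69.6 CPM in unstimulated KO, against 48.4 and 46.3 CPM in unstimulated WT, so the washed-out level was higher by 2.55 on the log2 scale in KO and by 2.08 in WT. The difference of these changes did not pass (unadjusted p = 0.017, adjusted p = 0.69). Mfge8 was higher after washout than unstimulated by 1.57 in KO and by 1.33 in WT. Irf7 went the other way: it was lower after washout than in unstimulated cells by 1.00 on the log2 scale in KO and by 1.42 in WT, with 152 and 164 CPM in unstimulated KO, against 105 and 106 CPM in unstimulated WT.

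The 250 bases before the start of 9113 of the genes compared (RefSeq, GRCm38.p6) were searched on both strands for AGGTCA, the half-site that PPARγ with RXR and other nuclear receptors bind. It was found before 18 of 87 genes called higher (20.7%) and 11 of 93 called lower (11.8%), leaving out genes sensitive to counting, against 10.3% of all 9113. The complete direct repeat AGGTCANAGGTCA was in 0 of these 87 and 0 of these 93 windows and in 3 of all 9113. Of the named genes called, Trem2 and C1qc, which were higher, and F7, which was lower, hold a half-site. It is in capitals below as its reverse complement, at bases -68, -174 and -34 from the start. These windows are shown because no other searched window of a named gene called holds it. Most of the 18 and 11 genes are not shown.
Trem2 (chr17:48346151-48346400, plus strand): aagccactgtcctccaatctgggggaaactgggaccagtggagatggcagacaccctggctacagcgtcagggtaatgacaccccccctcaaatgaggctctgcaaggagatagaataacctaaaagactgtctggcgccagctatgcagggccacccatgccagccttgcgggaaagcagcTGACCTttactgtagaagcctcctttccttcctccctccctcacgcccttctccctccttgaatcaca
C1qc (chr4:136892915-136893164, minus strand): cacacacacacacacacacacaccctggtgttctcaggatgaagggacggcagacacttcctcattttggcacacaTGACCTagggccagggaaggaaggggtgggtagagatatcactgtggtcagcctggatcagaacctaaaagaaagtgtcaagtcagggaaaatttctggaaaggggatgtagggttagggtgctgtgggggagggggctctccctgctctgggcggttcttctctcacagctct
F7 (chr8:13025784-13026033, plus strand): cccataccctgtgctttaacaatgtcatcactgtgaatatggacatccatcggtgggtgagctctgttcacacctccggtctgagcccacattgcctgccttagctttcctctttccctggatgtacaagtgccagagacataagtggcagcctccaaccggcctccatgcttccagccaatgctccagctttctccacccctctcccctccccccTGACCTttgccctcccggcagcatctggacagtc

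The same windows of Saa3, the gene with the largest increase, and Bst2 are shown for 2 other motifs. In Saa3 the capitals mark TTATGCAA, a match at base -99 on the reverse strand to TTGCNNAA, a form of the C/EBP motif that 7.48% of all 9113 windows and 13.8% of those of genes called higher hold. In Bst2 the capitals mark 2 overlapping matches, from bases -130 and -124, to GAAANNGAAA, the core of the interferon-stimulated response element, which 2.79% of all windows and 3.45% of those of genes called higher hold. Saa3 also holds 1 such match at base -125, not in capitals. A match is a run of letters, not a bound site, and the motifs were chosen after the values were seen.
Saa3 (chr7:46715677-46715926, minus strand): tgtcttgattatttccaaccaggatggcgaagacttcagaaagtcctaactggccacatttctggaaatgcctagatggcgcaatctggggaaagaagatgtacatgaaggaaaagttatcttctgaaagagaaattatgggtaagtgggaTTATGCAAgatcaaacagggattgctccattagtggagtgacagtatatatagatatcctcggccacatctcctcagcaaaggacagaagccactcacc
Bst2 (chr8:71537473-71537722, minus strand): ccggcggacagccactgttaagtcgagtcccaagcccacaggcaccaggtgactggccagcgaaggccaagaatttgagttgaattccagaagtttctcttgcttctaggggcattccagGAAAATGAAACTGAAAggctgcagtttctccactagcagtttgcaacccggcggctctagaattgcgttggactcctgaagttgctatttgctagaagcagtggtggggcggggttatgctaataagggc

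By position, 6 of the 117 genes not sensitive to counting within 10 Mb of Pparg were called (5.13%, against 2.52% of all genes not sensitive), a window chosen after the values were seen. These were 8430408G22Rik and Plxnd1, higher in KO, and Cd163, Clec4b1, Gdf3 and Tmcc1, lower. On chromosome 6 as a whole 3.56% were called, and on chromosome 7, which carries Saa3, Mfge8, Irf7, Itgax, Htatip2 and Axl, 17 were higher and 10 lower, or 4.08%. Chromosomes 13 (4.04%) and 17 (3.79%) also had larger shares than chromosome 6, and chromosome 16 had the smallest (1.03%). Strain background around the altered allele was not tested.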

How the data were processed

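RNA was measured in 24 samples of mouse macrophages in 12 groups of 2, and the 16 samples of the memory experiment (8 groups) were used. Trizol extraction and poly-A library preparation preceded Illumina sequencing, per the labels' protocols. The tools named are Cufflinks 2.0.2 and TopHat2 2.0.7, with the mm10 build, per the submitters' processing notes; what each did is not given in the sources used here. The values are a signal that the authors deposited as the mean of both samples of a group, in CPM and without any spread.

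From each mean, the whole reads of both libraries were recovered: 99.7% of the values above 0 had 1 solution in either washed-out group, while 16 KO and 28 WT values could not be split and entered the fit as 1 observation of double weight. The separation was tested on simulated data, where all 27563 such solutions were right. Sequence sharing was computed from 50-base words of GENCODE M21 transcripts. limma 3.58.1 (R 4.3.3, limma-trend) was fitted to log2(CPM + 1) of all 16 libraries, with 1 coefficient and 1 weight per group, and p-values were adjusted by Benjamini-Hochberg over all genes compared. "Higher", "lower", "rose" and "fell" in a count mean an adjusted p under 0.05. Log2 ratios are taken from the authors' means after adding 1 CPM, and so understate changes of low genes; standard errors are limma's. In a simulation of this comparison with 11304 genes, 23.9%, 80.6% and 100% of genes changed 1.5-, 2- and 4-fold were called, with 12 calls on unchanged genes. The simulated libraries of a group shared the same mean and a fixed spread, with no mixed counting and no library standing apart. The real libraries have both, so these rates may not hold for them.

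Named genes were Pparg, the 15 higher and 15 lower calls with the largest ratios not sensitive to counting, up to 4 members of each of 36 gene lists, and 3 genes with sequence copies; other list members named, Plxnd1 and Tmcc1 were chosen after their values were seen. The members and lists were chosen with earlier results of these data known. Alternatives were other pseudocounts, filters and scaling, no weights, only the 4 libraries compared, the counting kind of a library as a term, limma-voom, and each library left out. Median ratio scaling was used in place of TMM because the deposited unit is not counts. Some list results are not reported here.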

Additional observations from a re-analysis of the deposited data

How the results depend on the processing

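The 291 genes called after washout became 78 with no filter on low values, 1036 without genes that share sequence, 32 without group weights, 9 with only the 4 libraries compared and 56 by limma-voom, and ran from 60 to 1503 when each library was left out. The genes beyond 2-fold, 307 in all, became 48 without genes that share sequence and ran from 56 to 453 when each library was left out. The test of the washout against the unstimulated difference called 0 genes as reported, 4 without genes that share sequence, 1 with the counting kind as a term, and 0 to 612 with each library left out. Without the deeper WT library the washed-out libraries were counted alike, while the unstimulated WT libraries were counted differently from KO. The cause of these changes in number was not tested. Of the 64 named genes called, none changed sign in the 14 alternatives, and 41 kept their call with the counting kind as a term, 35 with no filter, 18 without weights, 6 with only 4 libraries, 20 by limma-voom, and 30 to 62 with each library left out. No paired analysis was possible because the libraries recovered from the means carry no replicate numbers. With 2 libraries a group, changes of 1.5-fold were mostly missed in the simulation, so a gene not called is not shown to be alike in the 2 genotypes. Low genes rest on few reads: 3 reads are 0.359 and 0.423 CPM in the KO libraries, against 0.301 and 0.340 CPM in the WT libraries.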
